A study of Mus musculus with 4 samples.

Results

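The Gimap genes (GTPases of immunity-associated proteins) were followed through cultures of mouse T-cell progenitors in which Runx1 was overexpressed, or Runx1 and Runx3 were disrupted, during the first days of T-lineage commitment. The 8 members Gimap1, Gimap3, Gimap4, Gimap5, Gimap6, Gimap7, Gimap8 and Gimap9 were taken by symbol, with no cutoff on their values, from the 31053 genes in the count matrices. Earlier results of these data were known when the family was chosen. All 8 were found and had unique molecular identifiers (UMIs, which mark single captured RNA molecules) in both experiments.

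Gimap proteins are GTPases, several of them anchored in the membranes of organelles, and are made mainly in lymphocytes. Several of them are known for the survival of T cells: loss of Gimap5 or Gimap1 leaves few mature peripheral T cells, and Gimap6 has been tied to autophagy. During thymic development the family is known to switch on at different stages, with some members appearing only as T cells mature. The genes stand together in 1 cluster, so neighbouring members can be compared with genes just outside it.

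There were 2 single-cell experiments, each with an mRNA library and a hashtag library, which reads the antibody-borne barcodes that keep pooled cultures apart. For overexpression, bone marrow progenitors of B6.Bcl2 transgenic mice aged 8 to 10 weeks received MSCV-Runx1-mCherry or MSCV-empty-mCherry on day 2, and Lineage-, mCherry+, CD45+ cells were sorted on days 4 and 6. For the double knockout, progenitors of B6.Cas9;Bcl2 transgenic mice received E42 vectors marked with hNGFR or mTurquoise that carried guides against Runx1 and Runx3 (3 pairs per gene) or, in controls, against luciferase. These cells were sorted as Lineage-, mTurquoise+, hNGFR+, CD45+ on days 5 and 8. All groups carried the Bcl2 transgene, which is known to protect lymphoid cells from death, and all grew on OP9-Dll1, a stromal line with a Notch ligand, with IL-7 and Flt3-ligand at 10 ng/ml each. The labels give 4 to 5 days in culture for experiment 1 and 4 to 8 days for experiment 2, and call the cells Kit-high pro-T cells (Phase 1, before commitment).

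The hashtag tables name their 8 columns only by oligo sequence, and no label ties an oligo to a vector or a day. Hashtags were numbered 1 to 8 in column order. The same 8 oligos served both experiments, but a number shared by the experiments does not mean a shared condition. Each hashtag was therefore a sample of unknown condition, no group could be compared with its control, and no p-value is given. Levels are UMIs summed over the cells of a hashtag per 1e6 UMIs (CPM), with exact 95% Poisson intervals. The interval of a ratio is an exact conditional one, and these intervals cover counting error only, not the spread between cultures.

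After filters, experiment 1 held 8797 cells with a single hashtag and 38321 UMIs of the family, and experiment 2 held 8335 cells and 39214 UMIs of the family. Hashtags summed to between 14502400 and 42684200 UMIs. The 2 experiments shared 39 cell barcodes. Kit was read in every hashtag, at 54.3 to 89.0 CPM in experiment 1 and 26.4 to 56.5 CPM in experiment 2, but both experiments also held clusters led by granulocyte, mast-cell, innate lymphoid or stromal genes, and the hashtags' summed levels of 12 granulocyte or monocyte markers ran from 249 to 12574 CPM in experiment 2. The values below are for all cells unless cells are named, and the part of these other cells in them was not tested except where values without them are given.

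In GRCm38 the members span 123.666 kb, chr6:48647186-48770851. From the lower coordinate they stand in the order Gimap8 (ENSMUSG00000064262, chr6:48647186-48660875), Gimap9 (ENSMUSG00000051124, chr6:48676121-48679116), Gimap4 (ENSMUSG00000054435, chr6:48684578-48692062), Gimap6 (ENSMUSG00000047867, chr6:48701583-48708244), Gimap7 (ENSMUSG00000043931, chr6:48718621-48724636), Gimap1 (ENSMUSG00000090019, chr6:48739047-48743795), Gimap5 (ENSMUSG00000043505, chr6:48746197-48754200) and Gimap3 (ENSMUSG00000039264, chr6:48764464-48770851). Gimap6 and Gimap3 lie on the minus strand and the others on the plus strand. The shortest gap between members, 2401 bases, is that from Gimap1 to Gimap5, and the longest, 15245 bases, is that from Gimap8 to Gimap9. Because Runx1 and Runx3 were the factors perturbed, the 250 bases before each RefSeq transcript start (GRCm38.p6) were searched on both strands for the Runx letters TGTGGT and TGCGGT. The windows of Gimap1, Gimap4 and Gimap7 hold TGTGGT and that of Gimap9 holds TGCGGT, each once and on the strand opposite to the gene. They are printed on the plus strand with the match in capitals, so the capitals read ACCACA or ACCGCA:
Gimap9, chr6:48675885-48676120: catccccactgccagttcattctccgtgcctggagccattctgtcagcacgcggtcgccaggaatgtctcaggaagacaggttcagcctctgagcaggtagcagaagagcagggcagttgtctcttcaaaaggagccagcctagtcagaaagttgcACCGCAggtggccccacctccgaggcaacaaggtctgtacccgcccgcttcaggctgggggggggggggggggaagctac
Gimap4, chr6:48684328-48684577: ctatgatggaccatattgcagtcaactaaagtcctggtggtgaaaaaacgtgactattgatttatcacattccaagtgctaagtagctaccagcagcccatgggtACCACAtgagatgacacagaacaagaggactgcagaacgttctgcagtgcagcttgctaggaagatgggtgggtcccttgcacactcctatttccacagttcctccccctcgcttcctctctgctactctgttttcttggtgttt
Gimap7, chr6:48718371-48718620: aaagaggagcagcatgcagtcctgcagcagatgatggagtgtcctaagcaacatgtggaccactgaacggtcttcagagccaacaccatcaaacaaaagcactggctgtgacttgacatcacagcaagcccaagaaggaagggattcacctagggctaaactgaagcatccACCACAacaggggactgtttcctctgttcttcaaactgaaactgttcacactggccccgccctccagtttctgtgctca
Gimap1, chr6:48738797-48739046: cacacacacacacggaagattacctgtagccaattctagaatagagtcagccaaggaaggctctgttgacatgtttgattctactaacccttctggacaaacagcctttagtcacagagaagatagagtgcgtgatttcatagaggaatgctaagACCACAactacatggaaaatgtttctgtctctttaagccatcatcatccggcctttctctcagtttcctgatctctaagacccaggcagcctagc
The Gimap9 window searched ran to chr6:48676134 and is cut in print where the annotated gene begins. The matches lie 95 bases before the RefSeq transcript start of Gimap1, 145 before Gimap4, 79 before Gimap7 and 94 before Gimap9. For Gimap9 that start lies inside the annotated gene, so the 94 is not counted from the end of the printed window. TGTGGT was in 3 of the 9 member windows (Gimap8 has a pair of starts) and in 14.0% of 32851 windows of all genes. TGCGGT was in 1 of the 9 and in 5.10% of all windows. The Ets letters AGGAAG were in 7 of the 9, against 29.5% of all windows. None of the 9 held the GATA letters AGATAA, found in 9.99% of all windows, or the E protein letters CAGCTG, found in 13.0%. Nor did any hold CTTTGAT, the letters of Tcf7 and Lef1 (3.21% of all windows). The Rbpj letters TGGGAA, in 21.6% of all windows, were absent from the 9 too. These are matches of letters and say nothing of binding.

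The summed family differed several-fold between cultures in both experiments. In experiment 1 the sums over the 8 members were 108, 97.5, 254, 268, 193, 184, 151 and 153 CPM in hashtags 1 to 8. Hashtags 3 and 4 stood highest and hashtags 1 and 2 lowest. The highest was 2.75-fold the lowest (95% interval 2.65 to 2.86). In experiment 2 the sums were 72.1, 195, 153, 381, 121, 83.0, 273 and 117 CPM. Hashtag 4 stood highest there, hashtag 7 next and hashtag 1 lowest, a ratio of 5.28 (5.05 to 5.52). Clusters with at least 3 leading markers of another cell type were then left out. Cells with at least 2 UMIs summed over Cd8a, Cd8b1, Cd4 and Trac were left out too. This took out 2905 of the 8335 cells, including clusters 1, 6 and 8 (167, 920 and 988 cells), which earned no cell-type name. Cluster 6 held 487 cells of hashtag 3 and 291 of hashtag 5. The sums were then 106, 237, 196, 405, 198, 98.6, 291 and 125 CPM. Hashtags 4 and 7 still stood highest, but hashtag 6 was then lowest, hashtag 5 went from 121 to 198 CPM and passed hashtag 3, and the ratio was 4.11.

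Gimap1 and Gimap9 gave most of these UMIs. UMIs of these libraries, which read the 3′ end, count molecules and need no scaling by length. How reads shared by near-identical paralogs were treated is not given in the sources used here, and RefSeq places the noncoding gene Gm46958, which was not among the genes counted, across Gimap9. The split between members carries that limit.

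Gimap1, whose loss is known to deplete peripheral T and B cells, was read at 45.7, 40.9, 97.1, 103, 81.2, 72.6, 72.2 and 66.5 CPM in the hashtags of experiment 1. Hashtag 4 was 2.53-fold above hashtag 2 (2.38 to 2.69). In experiment 2 Gimap1 was at 30.3, 77.9, 57.9, 139, 45.5, 34.2, 129 and 53.1 CPM. Hashtags 4 and 7 were close to each other there and stood apart from the other 6, and the highest was 4.57-fold the lowest (4.26 to 4.90).

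Gimap5, the lymphocyte survival factor of the family, had 8.80, 7.83, 22.8, 23.6, 20.7, 20.4, 15.9 and 14.96 CPM in experiment 1, with hashtags 1 and 2 below the other 6. The ratio of highest to lowest was 3.01 (2.62 to 3.46). In experiment 2 it had 6.42, 17.5, 15.3, 40.9, 10.6, 7.26, 28.6 and 11.7 CPM, a ratio of 6.37 (5.50 to 7.40). Gimap5 and its neighbour Gimap1 kept nearly the same proportion. For each Gimap1 UMI there were 0.192 to 0.281 Gimap5 UMIs in the hashtags of experiment 1 and 0.212 to 0.295 in those of experiment 2.

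Gimap3 is the close paralog of Gimap5 and is known as its partner in T-cell survival. It was the rarest member in experiment 1, with 12, 15, 1, 3, 8, 9, 17 and 30 UMIs in hashtags 1 to 8, or 0.0337 to 2.07 CPM. Hashtag 8 was highest, and hashtags 3 and 4, which were highest for the family sum, were lowest for Gimap3. The 30 UMIs of hashtag 8 lay in 23 cells, but the 15 of hashtag 2 lay in 3 cells, and 1 cell of the experiment held 13. Single cells thus weigh on this order and on its correlations, which the counting intervals do not cover. The ratio was 61.4 (10.2 to 2506) against the single UMI of hashtag 3, and was 21.6 without hashtag 3 and 22.7 without hashtag 8. In experiment 2 Gimap3 stood at 0.496, 0.247, 3.12, 9.30, 1.08, 1.57, 0.552 and 0.898 CPM, with hashtag 4 at 37.6-fold hashtag 2 (18.0 to 94.6). Without hashtag 4 the ratio was 12.6, and without hashtag 2 it was 18.8.

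Gimap6, tied to autophagy, was at 10.9, 9.12, 18.1, 21.1, 15.9, 14.5, 23.7 and 20.3 CPM in experiment 1. Hashtags 7 and 8 were among its 4 highest, which sets it apart from Gimap9 and Gimap7, where they were among the 4 lowest. Its ratio was 2.60 (2.27 to 3.00). In experiment 2 it was at 7.26, 12.8, 12.3, 32.6, 9.83, 12.9, 20.5 and 15.4 CPM, a ratio of 4.49 (3.89 to 5.19) that was 2.83 without hashtag 4.

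Gimap9 had 35.6, 34.3, 101, 105, 62.0, 61.9, 29.6 and 39.4 CPM in experiment 1. Hashtags 3 and 4 stood far above the rest, and hashtag 7 was lowest, at a ratio of 3.54 (3.25 to 3.85). In experiment 2 it had 24.5, 79.1, 48.6, 117, 43.3, 20.3, 79.0 and 29.7 CPM. Hashtags 2 and 7 did not differ beyond counting error there, and hashtag 4 was 5.75-fold hashtag 6 (5.24 to 6.31).

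Gimap7, a GTPase that can dimerise and speed the GTP hydrolysis of its partner, had 4.57, 3.96, 9.60, 10.3, 8.99, 8.29, 4.87 and 5.38 CPM in experiment 1. Hashtags 3 to 6 stood above the other 4, and the ratio was 2.60 (2.13 to 3.18). In experiment 2 it had 2.62, 5.01, 8.39, 17.1, 6.33, 3.14, 12.6 and 3.50 CPM, a ratio of 6.50 (5.17 to 8.25).

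Gimap4, which has been linked to the death of activated T cells, was rare in experiment 1, at 1.23, 0.764, 2.83, 3.44, 1.71, 3.58, 1.76 and 3.24 CPM. Its ratio there was 4.68 (3.06 to 7.40), and 2.90 without hashtag 2. In experiment 2 it was at 0.408, 1.76, 6.44, 21.2, 3.60, 3.40, 1.27 and 2.92 CPM. Hashtag 4 was 51.9-fold hashtag 1 (30.7 to 95.6), the widest spread of any member in that experiment, with 15.8 without hashtag 4 and 16.6 without hashtag 1. Hashtag 7, second for Gimap1 and Gimap5, was second from the bottom for Gimap4.

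Gimap8, the longest protein of the family, with repeated GTPase domains, had 0.683, 0.273, 2.46, 2.30, 1.66, 1.95, 1.85 and 1.45 CPM in experiment 1, with hashtags 1 and 2 below the other 6. The ratio was 9.01 (4.63 to 19.6), and 3.60 without hashtag 2. In experiment 2 it was at 0.146, 0.812, 0.984, 4.86, 0.350, 0.224, 1.95 and 0.314 CPM, a ratio of 33.3 (13.9 to 104) against 5 UMIs in hashtag 1. It was 13.4 without hashtag 4 and 21.6 without hashtag 1.

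**Figure D1:**
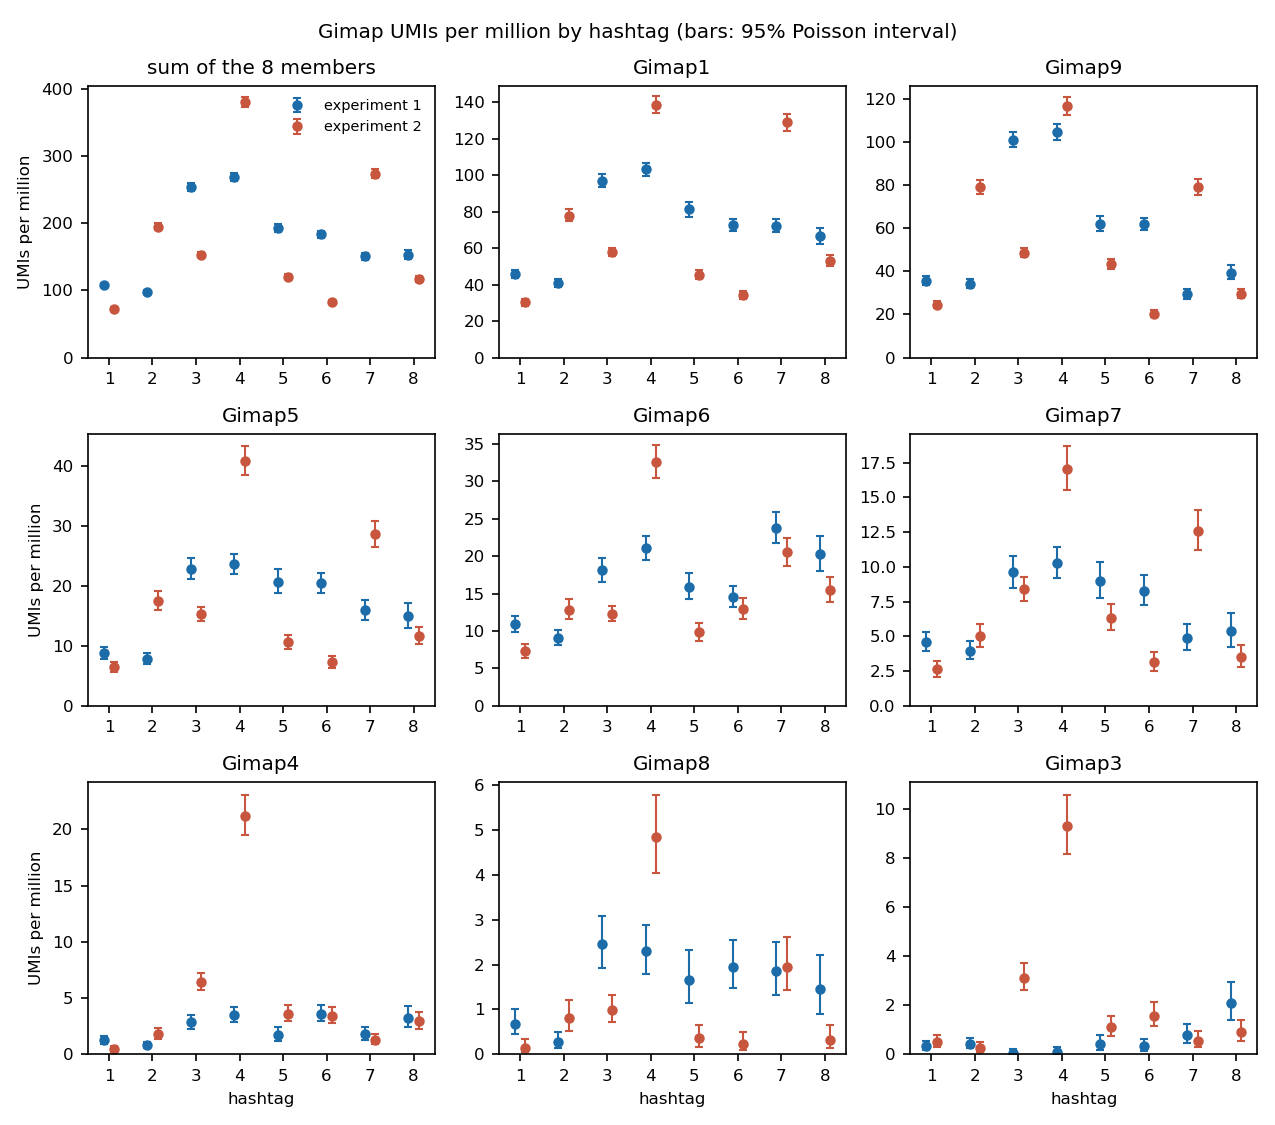
CPM of the summed family and of each member (vertical axes, each from 0) against hashtag number for experiment 1 (blue) and experiment 2 (red), with exact 95% Poisson intervals as bars. In experiment 1 hashtags 3 and 4 are highest for the sum, Gimap1 and Gimap9, and in experiment 2 hashtag 4 is highest in all 9 panels.

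Spread of this size was less common over the genome. Of the genes averaging 5 CPM or more over the 8 hashtags, 945 of 8775 (10.8%) reached a 2-fold range between hashtags in experiment 1. In experiment 2, 1529 of 8784 (17.4%) did. Ratios over those genes had medians of 1.31 and 1.38. In experiment 1 the 5 members past that level (Gimap1, Gimap5, Gimap6, Gimap7 and Gimap9) all had a ratio of at least 2, with a median of 2.60. In experiment 2 the same 5 members had ratios of 4.49 to 6.50. Gimap4 averaged 5.13 CPM there but had a median of 3.16 CPM. It passed that level through hashtag 4 (21.2 CPM), the hashtag that also makes its ratio, so its count is no separate support. With Gimap4 counted, all 6 were past 2, with a median of 6.06. Gimap3 and Gimap8 were under that level in both experiments and Gimap4 in experiment 1; their ratios were also above 2, but low counts widen a ratio, and with a floor of 1 CPM the share of all genes past 2 was 19.9% and 28.5%. With a floor of 20 CPM it was 6.47% and 11.2%, and the 2 members past that level, Gimap1 and Gimap9, were past 2 in both experiments.

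**Figure D2:**
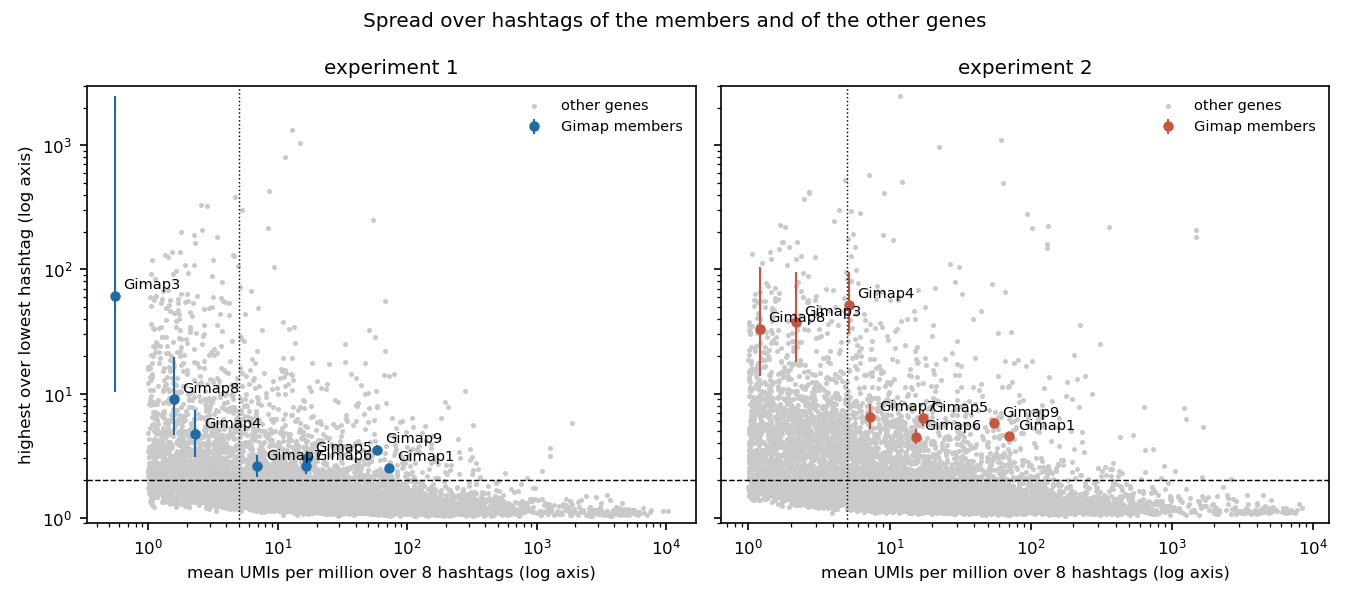
Ratio of the highest to the lowest hashtag against the mean level over 8 hashtags, both on log axes, for the members (coloured, with exact 95% conditional intervals) and for other genes averaging 1 CPM or more (grey). The dashed line marks a ratio of 2 and the dotted line a mean of 5 CPM, and all 8 members lie above the dashed line in both experiments.

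Members did not move in fixed proportion. Gimap1 held 36.4% to 47.9% of the family's UMIs in any hashtag. Gimap9 held 39.8% in hashtag 3 of experiment 1 and 19.6% in hashtag 7, where each Gimap1 UMI came with 0.409 Gimap9 UMIs against 1.04 in hashtag 3. Gimap6 went the other way, with 7.12% in hashtag 3 and 15.8% in hashtag 7. In experiment 2 the Gimap9 share was highest in hashtag 2 (40.5%) and lowest in hashtag 6 (24.4%), and the Gimap6 share was lowest in hashtag 2 (6.58%) and highest in hashtag 6 (15.6%). Gimap4 held at most 2.11% and Gimap3 at most 1.35% of the family in a hashtag of experiment 1, whereas in hashtag 4 of experiment 2 Gimap4 held 5.56% and Gimap3 2.44%.

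**Figure D3:**
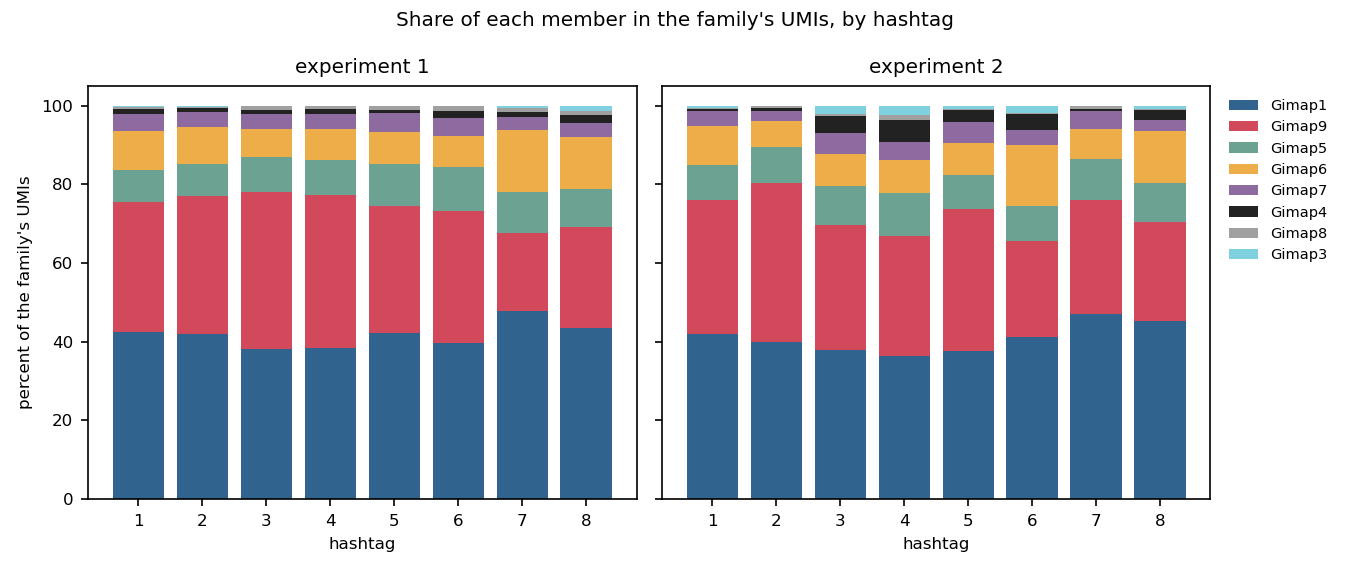
Stacked bars of the percent of the family's UMIs that came from each member (vertical axis) in hashtags 1 to 8 of each experiment. The Gimap9 segment runs from 19.6% to 40.5%, and Gimap4 and Gimap3 are thickest in hashtags 3, 4 and 6 of experiment 2.

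Across the 8 hashtags of an experiment, Pearson correlations of log2(CPM + 1) described the same order. These points share a library and a scaling, hold cultures of unknown condition, and give no p. Against the summed family, r was 0.983 for Gimap1 and 0.962 for Gimap5 in experiment 1, and 0.987 and 0.996 in experiment 2. The sum holds each member, which raises the r of the abundant ones. For Gimap7 r was 0.944 and 0.921, for Gimap8 0.923 and 0.942 and for Gimap9 0.894 and 0.963. It was 0.68 and 0.86 for Gimap6, 0.78 and 0.56 for Gimap4, and -0.36 and 0.48 for Gimap3. Of the 28 pairs of members, 10 had r of at least 0.8 in experiment 1 and 14 in experiment 2. Gimap3 gave 5 negative values in experiment 1, including -0.61 with Gimap9, and with Gimap4 it reached 0.94 in experiment 2.

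The same cells tended to hold several members. With each cell thinned to 5000 UMIs, the number of cells with both members of a pair was set against the number expected if the members were spread independently within each hashtag. Among pairs with at least 10 cells expected, the observed count was above the expected one in 16 of 16 in experiment 1 (1.31 to 3.30 times) and in 21 of 21 in experiment 2 (1.36 to 3.73 times). Gimap1 and Gimap9 were together in 868 cells of experiment 1 against 665 expected, and Gimap5 and Gimap7 in 63 against 30.4. Gimap1 and the neighbouring gene Tmem176b were together in 674 cells of experiment 1 against 754 expected, and in 686 against 778 in experiment 2. Gimap1 and Kit were together in 774 against 738 and in 453 against 411. Pairs of other genes were not counted, so no share over all pairs stands beside the member counts. Hashtags also mix cell types, whose part in these counts was not tested. Gimap3 and Gimap4 were together in 43 cells of experiment 2 against 3.66 expected. Once cells with mature T-cell transcripts were left out, 0 cells held both against 0.124 expected, too few to tell whether they still went together.

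Before thinning, 80.9% of cells in experiment 1 and 73.0% in experiment 2 had at least 1 family UMI, with a median of 3 per cell in each. In experiment 2, 0.384% of cells held all 8 members. At 5000 UMIs per cell these shares were 50.0% (48.9 to 51.1) and 46.7% (45.6 to 47.8), after leaving out 195 and 185 shallower cells. Thinned shares ran from 32.6% in hashtag 2 to 64.6% in hashtag 4 of experiment 1, and from 25.8% in hashtag 1 to 74.5% in hashtag 4 of experiment 2. Gimap1 was found in 28.8% of thinned cells in both experiments, Gimap9 in 24.7% and 24.1%, and Gimap3 in 0.163% and 0.920%. As a level for free RNA, the family share was 4.49% (2.90 to 6.61) in the granulocyte or monocyte-like cluster of experiment 1, with a median depth of 33086 UMIs per cell against 24753 over all cells, and 10.5% in the stromal-like cluster of experiment 2.

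The family was higher in cells with more T-lineage transcripts in every culture. Cells were grouped by raw UMIs of Kit, the stem-cell factor receptor that falls as pro-T cells commit, and Il2ra, the CD25 chain that appears at the DN2 stage. With at least 2 Kit UMIs and no Il2ra UMI, the family level over the hashtags of experiment 1 ran from 61.3 to 177 CPM with a median of 101 CPM. Cells with at least 2 UMIs of both ran from 154 to 325 CPM, median 205 CPM, and were above the former in 8 of 8 hashtags, by 1.05 to 2.71 times. Cells with Il2ra but no Kit UMI ran from 161 to 357 CPM, median 233 CPM, again above the second set in 8 of 8, by 1.02 to 1.25 times. In experiment 2 the medians of the 3 sets were 81.5, 208 and 296 CPM, and both steps were upward in 8 of 8 hashtags. When cells with at least 2 UMIs of more mature T-cell genes (Cd8a, Cd8b1, Cd4 and Trac) were left out of the Il2ra set, its median in experiment 2 was 256 CPM, and hashtag 6 was at 133 CPM there, below its 155 CPM in the set with both, which still held such cells. In experiment 1 hashtag 8 was then at 193 CPM, below 197 CPM. The Il2ra set without such cells stayed above the set with Kit alone in 8 of 8 hashtags of both experiments. The median depths of the 3 sets were 26462, 26840 and 21170 UMIs per cell in experiment 1 and 29156, 31649.5 and 23499.5 in experiment 2, and the part of depth in these differences was not tested beyond the scaling to CPM.

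The spread between cultures was present within each set. Among cells with Kit and no Il2ra UMI, hashtag 4 was 2.88-fold hashtag 2 in experiment 1 (2.59 to 3.20) and 4.17-fold hashtag 1 in experiment 2 (3.72 to 4.68). Among cells with both, hashtag 4 was 2.11-fold hashtag 7 in experiment 1 (1.95 to 2.29), and hashtag 2 was 2.63-fold hashtag 8 in experiment 2 (2.28 to 3.05). Hashtag 7 of experiment 1 was nearly flat over the 3 sets, at 146, 154 and 161 CPM.

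Cells with at least 3 UMIs summed over Cd3d, Cd3e and Cd3g, chains of the T-cell receptor complex, had 379 CPM of the family in experiment 1 against 137 CPM in cells with none. In experiment 2 the values were 423 and 103 CPM. The former were higher in 8 of 8 hashtags of each experiment, by 1.56 to 3.18 times and by 1.66 to 6.53 times. Without cells with at least 2 UMIs summed over the same 4 mature T-cell genes they were at 376 and 365 CPM and still higher in 8 of 8, by 1.45 to 2.98 times and by 1.66 to 4.37 times. Gimap1, Gimap5, Gimap6, Gimap7 and Gimap9 each were higher in at least 7 of 8 hashtags of experiment 1 and in 8 of 8 of experiment 2, with all cells. The share of all genes that were higher by the same rule was not computed, so this count is a description only. Granulocyte, mast-cell, dendritic or stromal cells were not taken out of the set with no Cd3 UMI, and their part was not tested. Cells with a UMI of Bcl11b, the commitment factor, had 333 and 362 CPM of the family, and those with a UMI of Zbtb16 had 300.3 and 291 CPM.

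**Figure D4:**
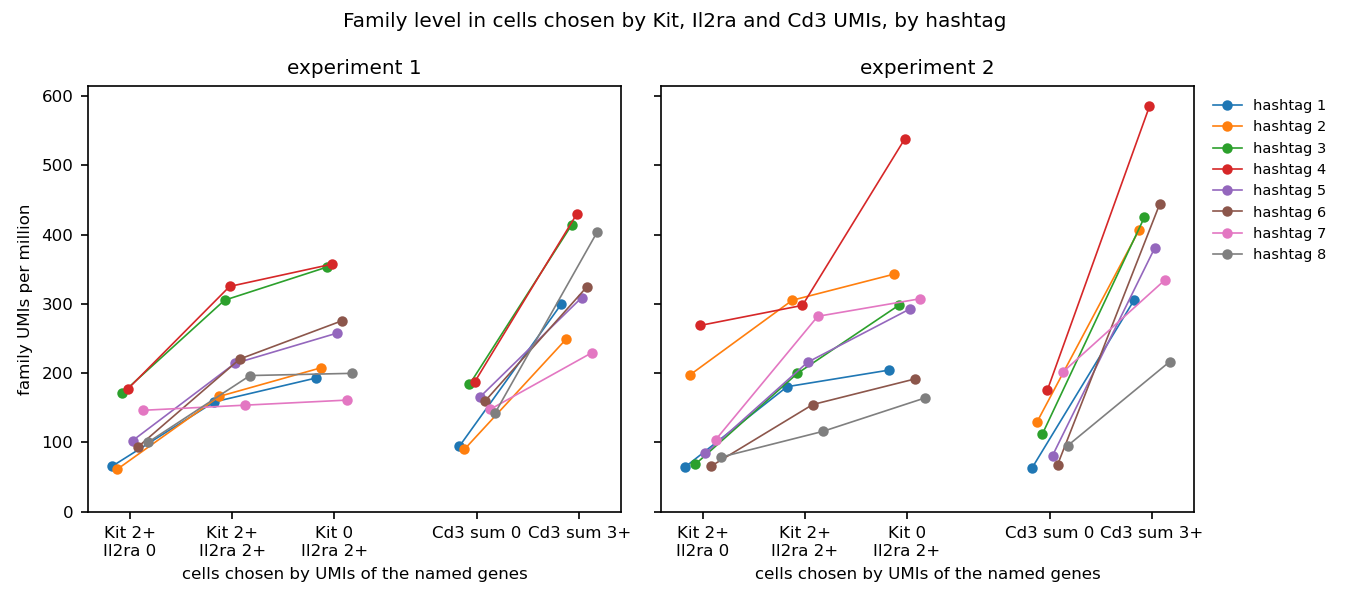
Family level in CPM (vertical axis) in cells chosen by their Kit, Il2ra and Cd3 UMIs (horizontal axis, 2+ and 3+ are minimum UMIs), with 1 line per hashtag for each experiment. All 16 hashtags step upward from cells with Kit alone to cells with Kit and Il2ra, and from cells with no Cd3 UMI to cells with at least 3.

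Clusters were made without the family's genes and take a name only where at least 3 markers of a class led them. In experiment 1 the family was highest in cluster 9, led by Pgam2, Gsn, Cdh1 and Zbtb16, at 345 CPM (336 to 354), and in cluster 3, led by Pgam2, Gsn and Cd3g, at 308 CPM (301 to 315). Of the 829 cells of cluster 9, 417 carried hashtag 3 and 408 hashtag 4, and of the 806 cells of cluster 3, 380 and 423 did. These clusters and those cultures cannot be told apart. Gimap9 exceeded Gimap1 in both, at 136 against 130 CPM and at 125 against 117 CPM. The early T progenitor-like cluster 4 had 282 CPM (276 to 289) and spread over 8 hashtags from 194 to 357 CPM. Cluster 6, led by Sh2d1a, had 190 CPM (182 to 197), with 566 of its 800 cells from hashtag 7 and 218 from hashtag 8, and there Gimap6 was at 32.6 CPM, above Gimap9 at 29.0 CPM. The lowest was the granulocyte or monocyte-like cluster 8, at 10.2 CPM (8.83 to 11.8).

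Experiment 2 had its highest level in cluster 1, led by Gzmc, Cd8b1, Ifng and Trac, with 869 CPM (843 to 896) in 167 cells. The early T progenitor-like cluster 2, led by Pgam2 and Themis, followed with 575 CPM (560 to 590), nearly all of its 597 cells from hashtag 4 (487) and hashtag 2 (107). The early T progenitor-like clusters 4 and 3 had 279 and 237 CPM. The multipotent progenitor-like clusters 5 and 11 had 111 and 71.7 CPM, the stromal-like cluster 30.1 CPM and the dendritic-like cluster 5.86 CPM. The dendritic-like level was 14.5 CPM with finer clusters and 19.8 CPM with 3000 variable genes, and the granulocyte or monocyte-like level of that experiment was 36.0, 17.0 and 26.5 CPM in the same settings. Members took different places in lymphoid clusters outside the T lineage: the B lineage-like cluster 15 had 230 CPM of the family, 116 CPM of it Gimap1, and the NK or innate lymphoid-like cluster 16 had 233 CPM, with Gimap4 at 12.0 CPM and Gimap6 at 35.0 CPM. In the NK or innate lymphoid-like cluster of experiment 1 Gimap4 was at 18.9 CPM and Gimap3 and Gimap8 at 8.51 CPM each, above their levels in the other named clusters of that experiment.

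**Figure D5:**
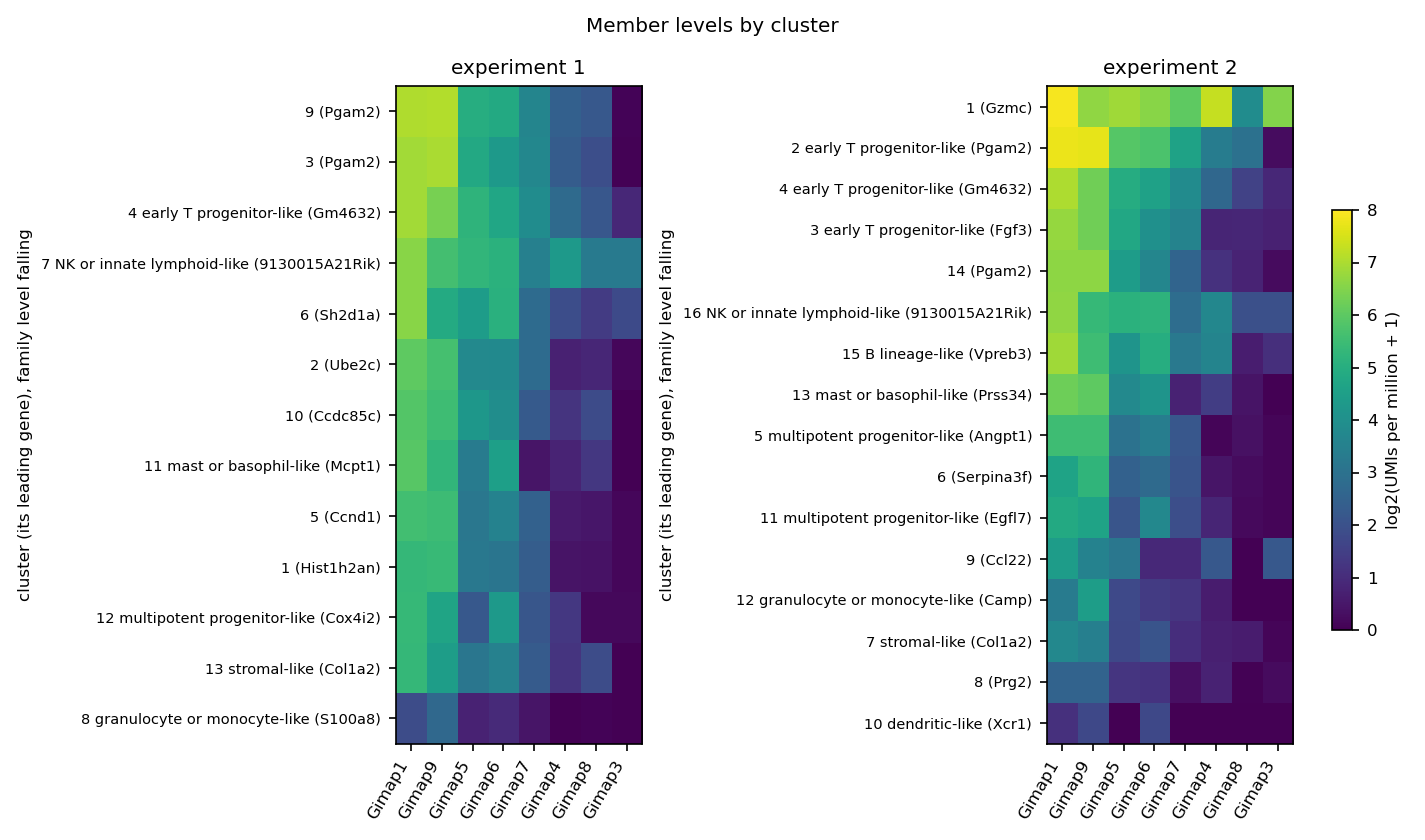
Heat map of log2(CPM + 1) for each member (columns) in each cluster (rows, in falling order of the family's level, with the leading gene in brackets) of experiment 1 and experiment 2. In experiment 2 cluster 1 (Gzmc) is the only row with bright Gimap4 (155 CPM) and Gimap3 (89.9 CPM), while Gimap1 and Gimap9 are bright over many rows.

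Gimap3 and Gimap4 in experiment 2 came mostly from a small set of cells. The 206 cells with at least 3 UMIs summed over Cd8a, Cd8b1, Cd4 and Trac were 1, 2, 38, 105, 13, 22, 6 and 19 of the cells in hashtags 1 to 8, and held 86.2% of Gimap3 UMIs, 64.0% of Gimap4, 25.2% of Gimap8, 18.9% of Gimap7, 7.45% of Gimap1 and 4.14% of Gimap9. Their family level was 723 CPM (702 to 745), with Gimap4 at 127 CPM and Gimap3 at 73.3 CPM, against 1.83 and 0.285 CPM in the 7945 cells with none of those UMIs. In the 5 hashtags with at least 13 of these cells their family level ranged from 161 CPM in hashtag 8 to 923 CPM in hashtag 4. Experiment 1 had 6 such cells, at 798 CPM, which held 22.1% of its 95 Gimap3 UMIs. In experiment 2, cluster 1 (Cd8b1 and Trac) held 106 cells of hashtag 4 but 4 of hashtag 8. Most of the 19 cells of hashtag 8 thus lay outside that cluster. Whether all 206 cells were mature T cells was not tested.

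Without cells with at least 2 UMIs of those genes, Gimap4 in experiment 2 was at 0.292, 1.74, 1.89, 4.01, 1.93, 1.91, 1.11 and 2.53 CPM, and its ratio fell from 51.9 to 13.7. Gimap3 was between 0.171 and 0.556 CPM, and its ratio fell from 37.6 to 3.25. Hashtag 4 remained highest for Gimap4, whereas hashtag 7 was then highest for Gimap3. The family sums were then 70.8, 195, 132, 318, 112, 74.3, 274 and 116 CPM, a ratio of 4.49, so the order of the 2 highest and the lowest hashtag was kept. In experiment 1 the Gimap3 level of hashtag 8 was 2.07 CPM with all cells and 2.01 CPM without these cells.

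Between experiments the summed family was nearly level, at 173 CPM (172 to 175) in experiment 1 and 169 CPM (167 to 170.3) in experiment 2. The ratio of experiment 2 to experiment 1 was 0.973 (0.959 to 0.987). It turned to 1.03 with TMM scaling, 1.02 with DESeq2 size factors and 1.10 without other cell types. That last setting also left out the unnamed clusters 1, 6 and 8 of experiment 2. Culture time, library and the mix of cultures cannot be told apart in the ratio. Of 8770 genes averaging 5 CPM or more, 163 (1.86%) stood 2-fold or more above experiment 1 in experiment 2, and 30 (0.342%) stood 2-fold or more below it. Of the 8 members 2 were at least 2-fold higher, Gimap3 (5.06-fold, 4.06 to 6.37) and Gimap4 (2.30-fold, 2.07 to 2.56), and none was 2-fold lower. Both were under that mean over the experiments, so they are not among the 8770. Without the cells with mature T-cell UMIs no member was 2-fold higher, and the ratios of Gimap3 and Gimap4 were 0.883 and 0.863, below 1. With all cells the other 6 members lay between 0.762 for Gimap8 and 1.04 for Gimap7.

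Genes beside the cluster served as a check on whether the whole region moved. Tmem176b, just beyond Gimap3, had a ratio of highest to lowest hashtag of 1.55 in experiment 1 and 1.81 in experiment 2, and its levels ran opposite to the family (r = -0.79 and -0.92 over 8 hashtags). Tmem176a did likewise (r = -0.69 and -0.76, ratios 2.33 and 2.35). On the other side, Repin1, a zinc finger protein gene, followed the family with smaller ratios (1.76 and 2.14, r = 0.88 and 0.94), as did Zfp775 (1.38 and 1.72, r = 0.68 and 0.97). Gm5111 had ratios of 2.30 and 5.91 (r = 0.18 and 0.78) and Lrrc61 1.68 and 1.91, at a mean of 2.92 and 2.15 CPM. The remaining neighbours Rarres2, Gm7932 and Aoc1 had means under 5 CPM in both experiments, and Doxl1 was not among the genes counted.

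The genes whose levels over hashtags were most like the summed family were ranked by the lower of the correlations in the 2 experiments, over 4963 genes averaging 20 CPM or more in both. The first was Prkca, a protein kinase C (r = 0.94 and 0.96), then Tcf12, which encodes the E protein HEB (0.97 and 0.94), and Trbc1, a constant segment of the T-cell receptor beta chain (0.96 and 0.94). Others among the 10 most alike were Ube2d2a, a ubiquitin-conjugating enzyme, Phkg2, a phosphorylase kinase subunit, Fam169b, Atp8a1, a phospholipid flippase, Arhgap5, a GTPase-activating protein, and Fut8, a fucosyltransferase, all with r of at least 0.9 in both. In all 28 genes reached 0.9 in both experiments. Prkca and Fam169b also had wide ratios (4.39 and 7.57, 4.02 and 8.26), while Phkg2 had 1.24 and 1.29, so a like order did not mean a like size of change.

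Lists of related genes were read in the same way. Of 19 early T-lineage genes, 14 had a mean of at least 5 CPM in experiment 1, with 13 past a ratio of 2 and a median of 3.20, and 16 in experiment 2, with 15 past 2 and a median of 7.30. Lef1, a partner of Tcf7 in T-lineage transcription, was widest in experiment 1 (14.5) and Cd3d in experiment 2 (65.7), and Notch1 was narrowest in both (1.91 and 1.58). Over that list the median r to the family was 0.72 and 0.75. Bcl11b was at 0.97 and 0.94 and Gata3, the T-lineage factor, at 0.91 and 0.90, whereas Il2ra was at 0.11 and 0.39. These genes were chosen by function and the counts describe them beside the 10.8% and 17.4% of all genes.

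The mature lymphocyte and egress list, which holds Klf2, S1pr1 and Ccr7, did not follow the family (median r 0.02 and 0.27). There 7 of 11 genes were past 2 in experiment 1 and 7 of 12 in experiment 2, with Klf2 widest in experiment 1 (14.6), Ms4a4b in experiment 2 (11.2) and Cd27 narrowest in both (1.24 and 1.14). Among 13 survival and death genes, 3 of 9 and 6 of 12 were past 2, and the median r was -0.36 and -0.32. Bcl2l1, which encodes the survival protein Bcl-xL, was widest in experiment 1 (2.93), Bcl2a1b in experiment 2 (39.5), and Bad was narrowest in both (1.10 and 1.39). Bcl2 went the other way from that median, with r of 0.71 and 0.88 and ratios of 2.34 and 5.03. Its counts cannot separate the transgene from the mouse gene. Among 13 progenitor genes 4 of 11 and 9 of 11 were past 2, with Meis1 (3.79) and Lmo2 (11.2) widest and Lyl1 narrowest (1.31 and 1.51). The median r was -0.50 and -0.66. Kit, the progenitor gene used above to group cells, went the other way over hashtags, with r of 0.81 and 0.55.

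The innate lymphoid list had 5 of 6 and 9 of 9 genes past 2. Zbtb16 was widest in experiment 1 (19.5) with r of 0.92 and 0.88 to the family, Gzmc was widest in experiment 2 (1101), and the narrowest were Nkg7 (1.86) and Fcer1g (2.20). The interferon-inducible GTPases, relatives of the Gimap proteins in a broad sense, all varied too: 14 of 14 were past 2 in both experiments, with medians of 5.07 and 9.34, and the extremes were Iigp1 (17.5) and Irgm1 (2.87) in experiment 1 and Gbp2 (31.2) and Gbp7 (5.20) in experiment 2. Yet their median r to the family was -0.17 and 0.04, with members on both sides. Gbp2, Gbp3 and Gbp5 had negative r in both experiments, and Gbp4, Gbp6, Gbp8 and Gbp9 had positive r in both. Those with positive r in both were highest in hashtag 4 of experiment 2, as the family was. In experiment 1 they were highest in hashtag 8, as was the rest of the list, whereas the family was highest in hashtag 4.

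The Runx genes were measured beside the family without knowledge of which hashtag carried which vector. Runx1 was at 76.9, 79.4, 38.2, 39.3, 96.5, 85.8, 241 and 210.0 CPM in hashtags 1 to 8 of experiment 1 and at 57.5, 33.7, 52.9, 39.5, 58.8, 102, 86.7 and 121 CPM in experiment 2. In experiment 1 the 2 hashtags with the most family UMIs (3 and 4) had the least Runx1, and in experiment 2 hashtags 2 and 4 had the least Runx1 and the third-highest and highest family sums. Other hashtags did not keep that order. In experiment 1 hashtags 1 and 2 had the lowest family sums (108 and 97.5 CPM) at 76.9 and 79.4 CPM of Runx1. Hashtags 7 and 8 there had the most Runx1, and family sums of 151 and 153 CPM. Hashtag 7 of experiment 2 had 86.7 CPM of Runx1 and the second-highest family sum. Over the 8 hashtags r was -0.46 and -0.43. These Runx1 counts cannot separate vector transcripts or disrupted transcripts from those of the intact gene. Of the 4 Runx list genes, Runx1 was widest (6.30 and 3.59) and the partner Cbfb narrowest (1.16 and 1.20). Runx3, the other gene disrupted, had r to the family of -0.41 and -0.65, with its lowest levels in hashtag 3 of experiment 1 (115 CPM) and hashtag 4 of experiment 2 (74.7 CPM). For Runx2 r was -0.73 and -0.87, and for Cbfb it was 0.60 and 0.34. Counts of Runx3 cannot separate disrupted transcripts either.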

How the data were processed

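Single-cell mRNA and hashtag libraries were made with 10x Chromium v3, per the labels' protocols. The authors deposited raw counts of UMIs per gene and cell, and raw hashtag counts per cell (molecules or reads is not stated). The matrices came from Cell Ranger 3.0.0 with mm10 and GRCm38, per the submitters' processing notes. No column of per-sample values was left unused.

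Barcodes needed 500 or more genes and a mitochondrial share under 10% to count as cells, and a cell was given a hashtag where the top hashtag had at least 50 counts and at least 3 times the second. The hashtags' summed UMIs give the depth. Per the labels alone no hashtag could be tied to a condition, so the planned edgeR quasi-likelihood test was not run. With 1 mRNA library per experiment and no replicate, ratios carry exact conditional intervals, shares exact Clopper-Pearson intervals and CPM exact Poisson intervals. A hashtag at 0 UMIs was set to 3 for a ratio, which applied to no member. Ratio and likeness calculations were tested on simulated data.

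Cells were clustered with scanpy 1.11.5 (2000 variable genes without the members, 30 components, 15 neighbours, Leiden resolution 0.5). A name needed at least 3 markers of a class among the 50 leading genes. Doublets were limited only by the hashtag rule, since Scrublet's own threshold marked almost no cell. The named genes were the 8 members, the 10 genes most like their sum (1 of them is not reported here), the 5 protein-coding genes on each side, and the widest and narrowest gene of each list; others (such as Bcl11b, Gata3 and Il2ra) were chosen after their values were seen. The members and lists were chosen with earlier results of these data known. Alternatives covered HTODemux of Seurat 5.3.0, TMM of edgeR 4.0.16, size factors of DESeq2 1.42.0, thinning, filters and left-out cells. Promoter windows are RefSeq's (GRCm38.p6). Software ran in Python 3.11.15 and R 4.3.3.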

Additional observations from a re-analysis of the deposited data

Results flagged for a closer look

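Of 34 series of 8 hashtag values, 5 had a hashtag whose gap to its nearest neighbour took up more of the range than Dixon's 95% critical value for 8 samples allows. Chance flags about 1 series in 20, and the hashtags hold different cultures, so a distant value need not be an error. Gimap3 in hashtag 8 of experiment 1 stood at 2.07 CPM, and its share of the family there was 1.35%. In experiment 2 hashtag 4 stood apart for Gimap3 (9.30 CPM), Gimap4 (21.2 CPM) and Gimap8 (4.86 CPM), and it was also the hashtag with the most cells (105 of 206) with mature T-cell UMIs, whose part in the Gimap8 value was not tested beyond the level without them (3.46 CPM).

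Family UMIs were also present in barcodes outside the comparisons, above the level that a count of 0 allows. In experiment 1 the family was at 12.5 CPM in 39 barcodes in which no hashtag reached 50 counts, 164 CPM in 496 barcodes whose top hashtag was under 3 times the second, and 146 CPM in 635 barcodes that the cell filter removed. In experiment 2 the corresponding levels were 53.0 CPM in 638 barcodes, 148 CPM in 1241 and 97.1 CPM in 342.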

How the results depend on the processing

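No ratio of highest to lowest hashtag of the family or a member came under 2 with any alternative run. The ratio of the experiments did change direction (below 1 against above 1), as its values here show. The family ratio of experiment 2 (5.28) was 5.61 with HTODemux, 4.84 with TMM, 4.79 with DESeq2 size factors, 6.00 as a mean over cells, 5.99 after thinning, 4.11 without clusters and cells of other types, 5.55 without the top 5% of Scrublet scores, and, in settings chosen after seeing the data, 4.49 without cells with mature T-cell UMIs and 4.50 without cluster 1. That of experiment 1 (2.75) was 2.65 with TMM, 2.64 with DESeq2 size factors and 2.44 without other cell types. The setting without other cell types took out the unnamed clusters 1, 6 and 8 of experiment 2 and only named clusters of experiment 1. Leaving out 1 hashtag at a time gave 2.49 to 2.75 and 3.79 to 5.28. The family level of experiment 2 over experiment 1 (0.973) was 1.04 with the stricter cell filter, 1.03 with TMM, 1.02 with DESeq2 size factors, 1.09 as a mean over cells, 1.08 after thinning, 1.10 without other cell types, 0.891 without cells with mature T-cell UMIs and 0.889 without cluster 1. Settings on both sides of 1 leave it without a direction. The number of members at least 2-fold higher in experiment 2 went from 2 to 0 in the last 3 of these settings. With a mean of at least 20 CPM, 2 members were counted past 2 in each experiment. Thinning moved the share of cells with a family UMI to 50.0% and 46.7%. Scaling moved the median of all genes by up to -0.11 (log2). No paired analysis was possible because hashtags carry no condition and no replicate number. Gimap3 and Gimap8 rest on 95 to 506 UMIs per experiment, which limits their order over hashtags.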
